A study of Rattus norvegicus with 17 samples.

Results

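Cultures of neonatal rat ventricular myocytes treated with phenylephrine were compared with cultures that had received plasma taken after NHD. The pair of groups was picked because they lie close on the first principal component, and the arrays were taken by their titles, which gave 2 phenylephrine arrays and 6 after NHD arrays, or 8 of the 17 arrays of the study. All cultures came from the hearts of Sprague-Dawley rats and are labelled as 5 days old. The after NHD cultures received uremic plasma at 10% (the titles of 5 of the 6 arrays write NH), and the abbreviation is not spelled out in the labels. The dose, the duration and the medium of the phenylephrine treatment are not given, and the protocol attached to every sample names the uremic plasma only. Whether the phenylephrine cultures also received plasma is not stated. The other 9 arrays, 6 of plasma before NHD and 3 of control plasma, entered the same fit and are given as reference levels. The samples of a group are called biological replicates without a statement that they came from separate cultures or plasma donors. What the p-values reflect is accordingly the scatter among these arrays, which may be technical.

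Phenylephrine activates α1-adrenergic receptors, which couple through Gq to phospholipase C, calcium release, protein kinase C and the extracellular signal-regulated kinases. In neonatal ventricular myocytes it is the classical agonist of hypertrophy, in which cells enlarge and natriuretic peptide and skeletal actin genes are raised. Uremic plasma carries retained solutes, hormones, lipids, cytokines and minerals.

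The closeness for which the pair was picked is given as a description. On principal component 1, with 45.7% of the variance, the phenylephrine arrays had scores of 33.6 and 35.7. The after NHD arrays lay between 15.1 and 37.2, and the control arrays between -72.2 and -50.3. The treatments did not overlap on component 2, with 15.8% of the variance, where phenylephrine scored 29.0 and 24.9 and the after NHD arrays -51.8 to 17.6. Replicate 4 of the after NHD arrays held the low end of that range, and its nearest array was replicate 4 of the before NHD arrays. They did not overlap on component 4 either, with 6.31% of the variance, where phenylephrine scored -28.4 and -25.2 and no other array fell below -12.3.

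**Figure D1:**
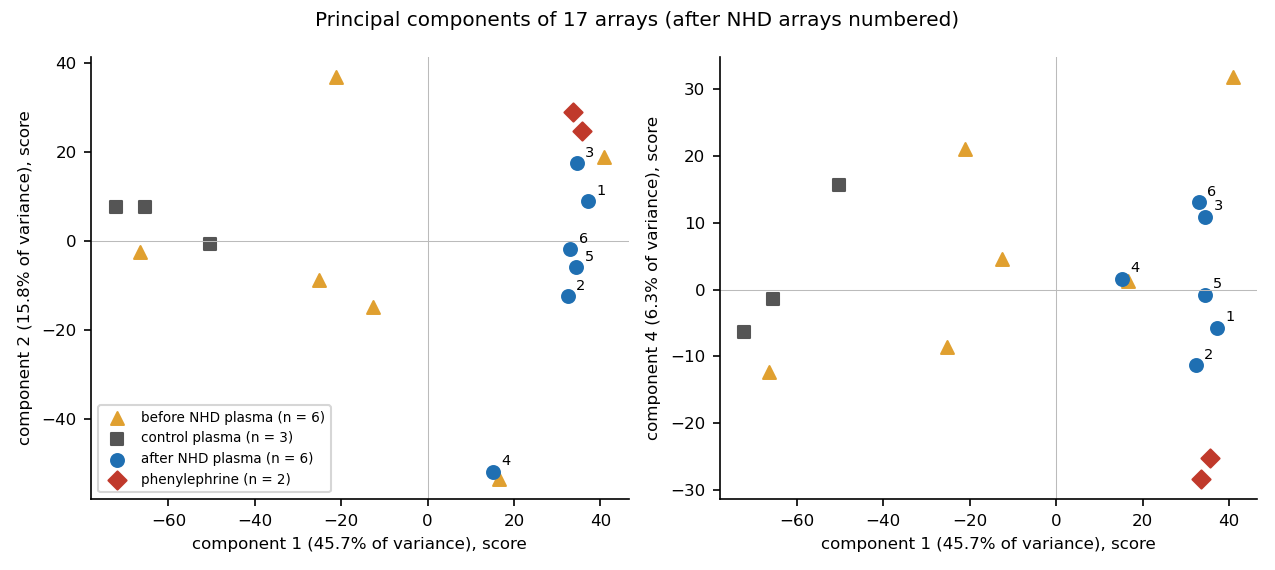
Scores of the 17 arrays on principal components 1 and 2 (left) and 1 and 4 (right), with 2 phenylephrine, 6 after NHD, 3 control and 6 before NHD arrays. Phenylephrine at 33.6 and 35.7 overlaps the after NHD arrays on component 1, lies above them on component 2 and lies below all other arrays on component 4.

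Cardiomyocyte markers were near the top of the scale in every array. The mean log2 level of 12 markers was 12.81 and 12.82 in the phenylephrine arrays and 12.91 to 13.10 in the after NHD arrays, and none of the 12 passed the test. The 18 fibroblast markers were also expressed, and differed between arrays of 1 group. Their mean log2 level was 9.73 and 9.47 with phenylephrine and ran from 7.33 to 9.27 after NHD, with replicates 2 and 4 low at 7.65 and 7.33, and it was 7.96 to 8.06 in the control arrays. All 18 markers had a positive difference (phenylephrine minus after NHD) with a median of 1.15. None passed the test (limma, 6 of 18 at an unadjusted p under 0.05, all higher). The smallest adjusted p of the 18 was that of Fbln1, with a difference of 1.11 ± 0.27 (SE, adjusted p = 0.0622). The collagen receptor gene Ddr2 had a difference of 2.06 ± 0.91 (adjusted p = 0.38). In RNA of whole cultures, more cells of a type and more RNA per cell cannot be told apart.

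The direct comparison called few genes against a large number that separated either treatment from control plasma. With limma and an adjusted p under 0.05, 286 of 29214 probe sets differed (0.979%), 141 higher (0.483%) and 145 lower (0.496%) with phenylephrine. Against control plasma, 5471 probe sets (18.7%) differed with phenylephrine and 8238 (28.2%) after NHD. These 2 comparisons share the control arrays, and the group sizes differ from 1 comparison to another. The pair had been picked for lying close on component 1, which also set both treatments apart from control plasma. The contrast in counts therefore follows in part from that choice. At the level of genes, 196 of 14506 differed (1.35%), 96 higher (0.662%) and 100 lower (0.689%), with a median difference of 0.00 over all genes. Without phenylephrine replicate 1, 16 probe sets were called, and without replicate 2, 42, so that each single call below rests on a pair of arrays. The calls of Cxcl10, Oasl, Mtif2, Ass1, Tmem100 and Mmp13 held in both of these fits. A fit with the mean level of the fibroblast markers in each array as a term was added once these results were known. It called 67 of the 14506 genes higher and 95 lower, and 48 of the 76 called genes named in the text stayed called. The 28 that did not had adjusted p-values of 0.05 to 0.146 in that fit and kept 72.5% to 109% of their log2 difference (median 87.5%). They were Rsad2, Ifit1, Isg15, Herc6, RT1-T24-4, Etv5, Pde2a, Scd, Abcg1, Cry1, Mrpl38, Mrpl10, Mrps31, Mrps30, Mrpl2, Qrsl1, Taco1, Mtpap, Tomm70, Coq9, Cox6a1, Asl, Lxn, Col4a1, Alas1, Hpdl, Mcrip2 and Tmem116, and none of the 76 changed direction. Without the before NHD arrays 403 of the 14506 genes were called higher and 512 lower. Lists with calls that were all higher in that fit included 13 of 26 interferon, 6 of 43 histocompatibility and 5 of 28 immediate early genes. They also included 4 of 27 adrenergic and Gq, 9 of 22 unfolded protein response and 5 of 36 matrix genes. Among the markers, 3 of 18 fibroblast and 3 of 8 epicardial genes were called, all higher. Calls that were all lower included 27 of 71 mitochondrial ribosomal, 12 of 33 fatty acid oxidation and 7 of 29 TCA cycle genes. They also included 6 of 74 respiratory chain and 4 of 26 glucocorticoid target genes. Other lists held calls in both directions, such as fatty acid synthesis (4 higher, 1 lower) and the interleukin 6 family (5 and 1). NRF2 (3 and 1) and Wnt and Notch genes (3 and 2) were further examples. At an unadjusted p under 0.05, 6.28% of all genes were higher and 7.68% lower, which is the background for the unadjusted counts of the lists. For the called counts of the lists in the fit of all arrays, the background is 0.662% higher and 0.689% lower.

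The other plasma arrays give a description of where the called genes lay, with no test, since the call itself had selected them for a gap between phenylephrine and after NHD. In all 196 both phenylephrine arrays lay beyond all 6 after NHD arrays. Of the 96 higher genes, 88 had both phenylephrine arrays above all 15 plasma arrays (4.65% over all genes), and of the 100 lower genes, 93 had both below all 15 (6.45% over all genes). These shares are not comparable, for the same reason. The mean of the control arrays lay nearer to the after NHD mean than to the phenylephrine mean for 88 of the 96 higher and 90 of the 100 lower genes.

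**Figure D2:**
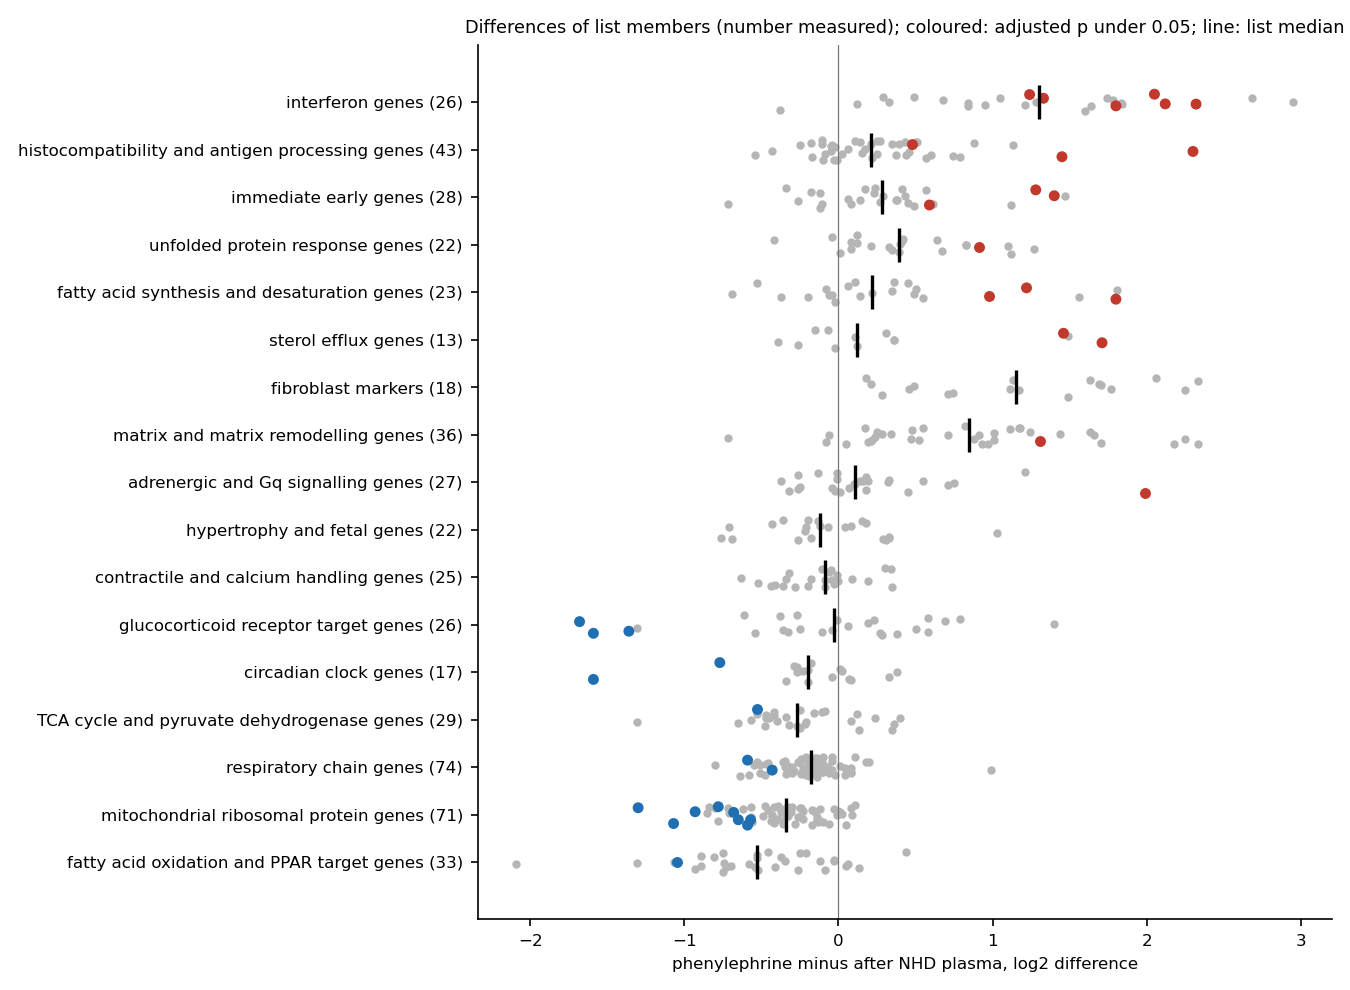
Log2 difference, phenylephrine minus after NHD plasma, of each measured member (point) of 17 gene lists, with the number measured in brackets, the list median as a line and genes with an adjusted p under 0.05 in colour. The interferon median of 1.30 is the highest of these lists and the fatty acid oxidation median of -0.53 the lowest.

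Interferon-stimulated genes, which cells switch on against viruses, had the largest median difference of all lists. Of 26 measured, 6 rose with phenylephrine and none fell, with a median difference of 1.30. At an unadjusted p under 0.05 in limma the count was 21 of 26. In 21 both phenylephrine arrays lay above all 6 after NHD arrays, a pattern found in 12.5% of all genes. In 5 of the 26 both lay above all 15 plasma arrays, against 4.65% of all genes. The chemokine gene Cxcl10, whose product attracts activated T cells, had the largest rise of all called genes. Its log2 level was 11.28 and 11.12 with phenylephrine, between 7.14 and 8.96 after NHD (median 8.27), and 9.31, 8.98 and 9.36 in control plasma. Phenylephrine was therefore above every plasma array, and control plasma was above the after NHD arrays. The difference was 3.11 ± 0.38 (SE), or 8.60-fold, with an adjusted p of 0.000704.

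Antiviral effector genes rose as well. Oasl, an oligoadenylate synthetase-like protein, had log2 levels of 8.92 and 9.34 with phenylephrine and 6.40 to 7.18 after NHD (median 6.86), and control plasma at 6.80, 6.96 and 6.81 lay inside the after NHD range. It rose by 2.32 ± 0.28 (adjusted p = 0.000704). Mx1, a dynamin-like GTPase that blocks viral replication, stood at 7.02 and 7.47 against 4.66 to 5.68 (median 5.18) and rose by 2.12 ± 0.33 (adjusted p = 0.0056). Ifit3, which acts with its relatives on viral RNA, stood at 7.93 and 8.35 against 5.48 to 6.42 (median 6.19) and rose by 2.05 ± 0.29 (adjusted p = 0.00276). In each of these genes the groups were separated by more than the whole range of the after NHD arrays. Smaller rises were called for Rsad2, the radical enzyme viperin, at 1.80 ± 0.41 (adjusted p = 0.0445, or 0.0537 after centring the arrays on their medians), for Ifit1 at 1.33 ± 0.27 (adjusted p = 0.026) and for the ubiquitin-like modifier Isg15 at 1.24 ± 0.27 (adjusted p = 0.035). The interferon-inducible ubiquitin ligase Herc6 rose by 1.87 ± 0.41 (adjusted p = 0.0394).

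The promoters of 3 of these genes are shown for the element through which interferon signals reach them. The interferon-stimulated response element, searched as GAAANNGAAA on both strands in RefSeq promoter windows of 300 bases (250 before and 50 after the gene's start, build GRCr8), was present in 3.92% of all windows. Of the 26 interferon genes, called or not, 18 had a window, and 12 of these held the letters (66.7%). Of the 6 that rose 4 had a window, and 2 held the letters. Among all genes higher with phenylephrine that had a window, 9.46% held them. The share was 5.68% for the lower genes and 4.12% for all genes with a window. Cxcl10, which belongs to the inflammation list, held 1 match. The stretches below lie at chr14:15988816-15988852 (plus strand), chr1:241527262-241527311 (plus strand) and chr6:48788238-48788287 (minus strand), are read on the gene's strand and have the element in capitals, in its reverse complement form for Ifit3 and Rsad2. No match was found for Oasl and Mx1 in this window, which says nothing about other positions.
Cxcl10: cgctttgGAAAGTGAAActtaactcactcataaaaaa
Ifit3: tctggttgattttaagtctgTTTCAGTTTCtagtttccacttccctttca
Rsad2: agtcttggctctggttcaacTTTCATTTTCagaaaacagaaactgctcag

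The interferon level was uneven among the plasma arrays. The mean log2 level of the 26 genes was 8.24 and 8.69 with phenylephrine, 6.72 to 7.75 after NHD with replicates 6 and 3 highest, and 6.85 to 7.01 in control plasma, while 1 of the 6 before NHD arrays (replicate 6) reached 8.49. The same after NHD replicates 3 and 6 had the highest fibroblast marker levels, at 9.27 and 9.01. With the mean of the fibroblast markers of each array as a term, 3 of the 26 interferon genes were called and the list median was 0.66. Oasl kept a difference of 2.16 (adjusted p = 0.00283) and Cxcl10 one of 3.08 (adjusted p = 0.00268) in that fit, whereas Rsad2, Ifit1, Isg15 and Herc6 did not pass, with differences of 1.48, 1.25, 1.03 and 1.37 (adjusted p = 0.145, 0.0778, 0.115 and 0.117). The part of cell makeup in the interferon levels was otherwise not tested.

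**Figure D3:**
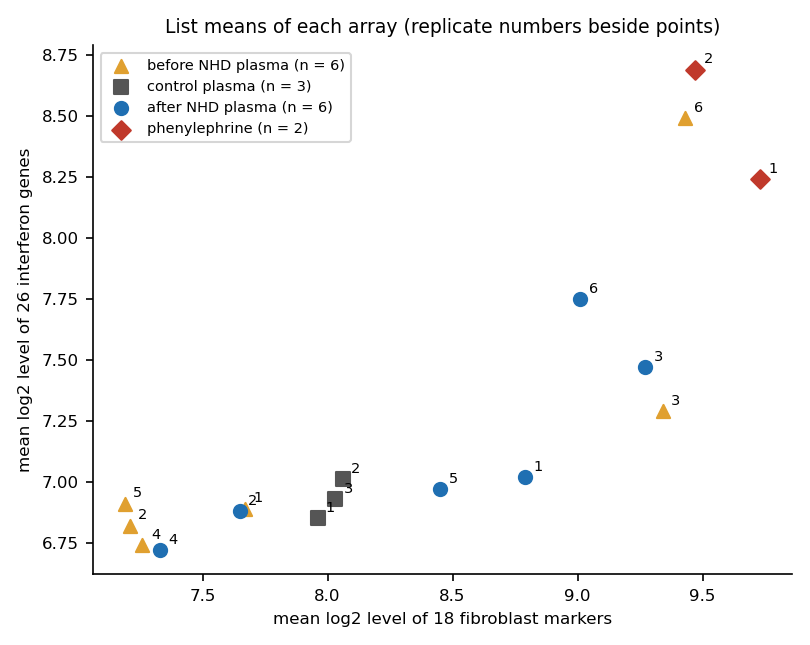
Mean log2 level of 26 interferon genes (vertical) against the mean log2 level of 18 fibroblast markers (horizontal) in each of the 17 arrays, with replicate numbers beside the points. Phenylephrine is high on both, as is before NHD replicate 6, while after NHD replicates 2 and 4 are low on both.

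Of the 43 histocompatibility and antigen processing genes measured, 3 rose and none fell (6.98% called, against 1.35% of all genes), with a median of 0.21. The class I gene RT1-S3 stood at 8.94 and 9.44 with phenylephrine and at 6.07 to 7.69 after NHD (median 6.84), and rose by 2.30 ± 0.52 (adjusted p = 0.0439). RT1-T24-1 rose by 1.45 ± 0.19 (adjusted p = 0.00156) and RT1-T24-4 by 0.48 ± 0.10 (adjusted p = 0.0357). Another probe set of RT1-T24-4 differed by 0.54 and did not pass (adjusted p = 0.244). The RT1-T24-4 mean in control plasma, 7.77, was nearer to that with phenylephrine (7.94) than to that after NHD (7.46). These genes belong to a family of near-identical copies, so that a probe set can read more than 1 of them. The 16 leukocyte markers gave 0 calls in limma (4 at an unadjusted p under 0.05, all higher), with a median of 0.24 and a mean log2 level of 6.46 and 6.36 against 5.86 to 6.48 after NHD.

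A few early response genes, which lie downstream of the kinases, rose with phenylephrine. Of 28 immediate early genes, 3 rose and none fell (10.7% called, against 1.35% of all genes), with a median of 0.28. The zinc finger transcription factor gene Egr2 stood at 8.17 and 8.15 with phenylephrine, at 6.45 to 7.09 after NHD (median 6.70) and at 6.69, 6.58 and 6.71 in control plasma, and rose by 1.40 ± 0.18 (adjusted p = 0.00131). Both phenylephrine values lay above all plasma arrays, and the after NHD and control ranges overlapped. Egr3 rose by 0.59 ± 0.10 (adjusted p = 0.00911). The survival factor gene Ier3 rose by 1.28 ± 0.18 (adjusted p = 0.00281). Egr1, with phenylephrine at 10.90 and 10.83 above all 15 plasma arrays, had a difference of 1.47 ± 0.45 that did not pass (adjusted p = 0.161). The ETS factor gene Etv5, a target of the same kinase cascade that was named after its value was seen, rose by 0.96 ± 0.18 (adjusted p = 0.015).

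Receptors and their brakes changed at single genes. Of 27 adrenergic and Gq signalling genes, 1 rose and none fell (3.7% called, against 1.35% of all genes), with a median of 0.11. That gene was Rgs5, a GTPase-activating protein that shortens Gq and Gi signals. It stood at 8.59 and 8.81 with phenylephrine, at 6.39 to 7.46 after NHD (median 6.58) and at 7.06, 7.20 and 6.91 in control plasma, and rose by 1.99 ± 0.31 (3.97-fold, adjusted p = 0.00556). Rgs5 is also a marker of pericytes, and it was the 1 call among 12 smooth muscle and pericyte markers, whose median was 0.25. The α1-adrenergic receptor gene Adra1a stood at 10.14 and 10.18 with phenylephrine and at 9.72 to 10.23 after NHD, with a difference of 0.18 ± 0.45 (adjusted p = 0.924), while its control levels were 7.57, 7.82 and 7.35. Adra1b had a difference of -0.32 ± 0.53 (adjusted p = 0.876). Among other receptor genes, the bradykinin receptor gene Bdkrb2 rose by 1.67 ± 0.26 (adjusted p = 0.00556). The incretin receptor gene Glp1r rose by 1.45 ± 0.17 (adjusted p = 0.000704), and Pde2a, a phosphodiesterase that degrades cyclic AMP when cyclic GMP is bound, by 1.28 ± 0.28 (adjusted p = 0.0388, or 0.0578 after centring). Both were named after their values were seen.

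None of the genes listed for the hypertrophic response passed the test in the fit of all arrays. Of 22 hypertrophy and fetal genes 0 passed in limma (1 at an unadjusted p under 0.05, lower), with a median of -0.12, and 1 passed, lower, without the before NHD arrays. Of 25 contractile and calcium handling genes 0 passed in limma (4 at an unadjusted p under 0.05, all lower), with a median of -0.09, and 2 passed, lower, without the before NHD arrays. The atrial natriuretic peptide gene Nppa stood at 13.92 and 13.93 with phenylephrine, at 13.81 to 13.88 after NHD and at 13.79, 13.79 and 13.80 in control plasma, near the upper end of the scale, which runs to 14.29. Its difference was 0.08 ± 0.08 (adjusted p = 0.749). The brain natriuretic peptide gene Nppb had a difference of 0.33 ± 0.27 (adjusted p = 0.701), the skeletal actin gene Acta1 one of 0.29 ± 0.27 (adjusted p = 0.748) and the slow myosin gene Myh7 one of 0.18 ± 0.11 (adjusted p = 0.573). For Acta1 the control mean of 13.19 was above both treatments. It differed from control by -0.5 with phenylephrine (adjusted p = 0.265) and by -0.79 after NHD (adjusted p = 0.0187). The fast myosin gene Myh6 stood at 12.56 and 12.14 with phenylephrine against 12.62 to 13.21 after NHD, with a difference of -0.63 ± 0.16 that did not pass (adjusted p = 0.0853). The calcium pump gene Atp2a2 had a difference of -0.18 ± 0.18 (adjusted p = 0.776).

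**Figure D4:**
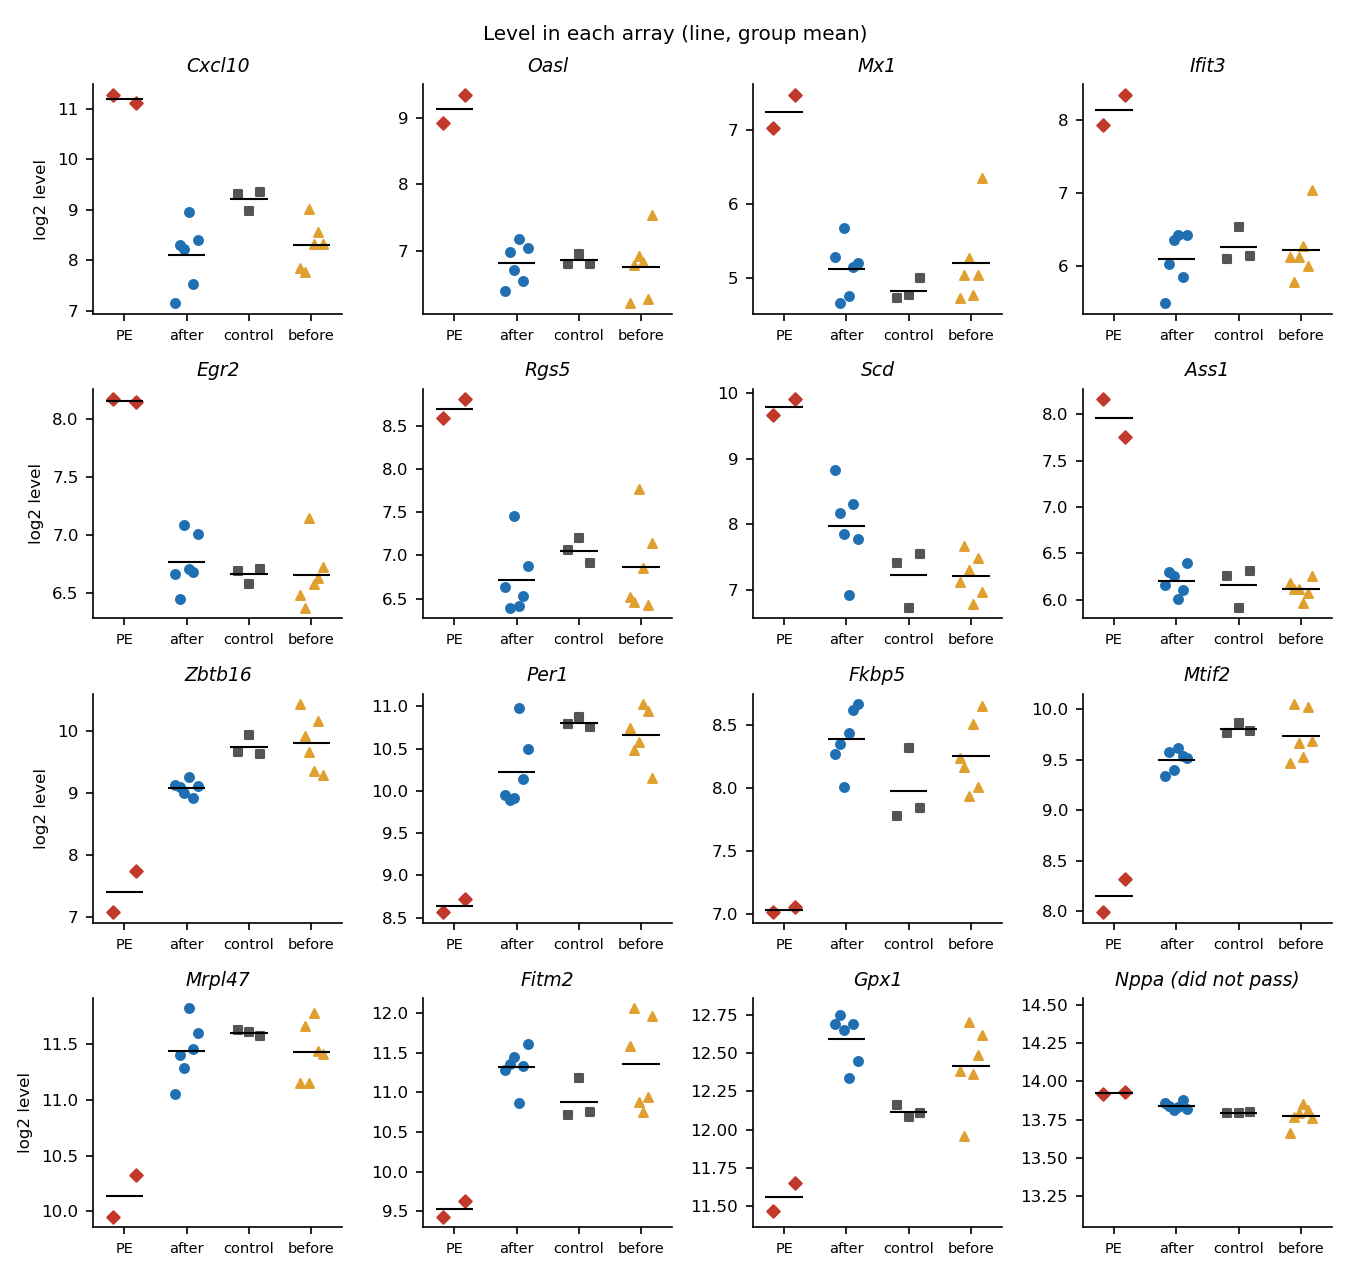
Log2 level of 16 genes in each array, with 2 phenylephrine (PE), 6 after NHD, 3 control and 6 before NHD arrays and the group mean as a line. The first 8 genes rose with phenylephrine and the next 7 fell, while Nppa, at 13.92 and 13.93 with phenylephrine, did not pass.

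Genes of lipid metabolism were called in both directions. Of 23 fatty acid synthesis and desaturation genes 3 rose and none fell (13.0% called, against 1.35% of all genes), with a median of 0.22. Scd, the desaturase that makes monounsaturated fatty acids, stood at 9.66 and 9.90 with phenylephrine, at 6.93 to 8.83 after NHD (median 8.01) and at 7.41, 6.73 and 7.55 in control plasma, and rose by 1.80 ± 0.36 (adjusted p = 0.0211). Fads2, which desaturates polyunsaturated precursors, rose by 1.22 ± 0.20 (adjusted p = 0.00687), and Acsl3, which loads fatty acids onto coenzyme A, by 0.98 ± 0.17 (adjusted p = 0.0102). Of 13 sterol efflux genes, the cholesterol exporter gene Abcg1 rose by 1.71 ± 0.37 (adjusted p = 0.0366) and the apolipoprotein gene Apoe by 1.46 ± 0.25 (adjusted p = 0.00975). None of the 24 genes of cholesterol synthesis and uptake passed in limma (1 at an unadjusted p under 0.05, higher), with a median of 0.24.

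On the side of storage and oxidation, Fitm2, which partitions triglyceride into lipid droplets, stood at 9.43 and 9.63 with phenylephrine and at 10.87 to 11.61 after NHD (median 11.34). It fell by 1.79 on the log2 scale (SE 0.30, adjusted p = 0.00949) and lay below all 15 plasma arrays. Pnpla2, the first lipase of triglyceride breakdown, was named after its value was seen and fell by 0.89 (SE 0.15, adjusted p = 0.00936). Of 33 fatty acid oxidation and PPAR target genes, 1 fell and none rose, with a median of -0.53 and 13 at an unadjusted p under 0.05, all lower. Against control plasma the list median was 0.08 with phenylephrine and 0.57 after NHD, so as a list it was the after NHD arrays that stood apart from control. The gene that fell was Acaa2, the mitochondrial thiolase of β-oxidation, at 11.54 and 11.73 against 12.32 to 12.85 after NHD (median 12.77), by 1.05 (SE 0.21, adjusted p = 0.0221). Unlike the list, Acaa2 in control plasma, at 12.58, 12.54 and 12.58, lay inside the after NHD range. Phenylephrine was below all 15 plasma arrays and differed from control by -0.93 (limma, adjusted p = 0.0116). The pyruvate dehydrogenase kinase gene Pdk4 (-1.31 ± 0.35, adjusted p = 0.0938), the coactivator gene Ppargc1a (-0.93 ± 0.25, adjusted p = 0.0963) and the carnitine carrier gene Slc25a20 (-1.07 ± 0.30, adjusted p = 0.112) had differences of similar size that did not pass.

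Genes of protein folding in the endoplasmic reticulum mostly had positive differences that fell short of the threshold. Of 22 unfolded protein response genes 1 rose and none fell (4.55% called, against 1.35% of all genes). The median was 0.39, and 13 were at an unadjusted p under 0.05 in limma, all higher. Hyou1, a chaperone of the reticulum, stood at 9.41 and 9.29 with phenylephrine, at 7.97 to 8.85 after NHD (median 8.45) and at 8.01, 8.02 and 8.03 in control plasma, and rose by 0.91 ± 0.17 (adjusted p = 0.015). The disulfide isomerase gene Pdia6 had a difference of 1.10 ± 0.29 (adjusted p = 0.0923) and Derl3, of the retrotranslocation machinery, one of 1.12 ± 0.27 (adjusted p = 0.0576). For this list the control arrays were nearer to phenylephrine: the median difference from control was 0.07 with phenylephrine and -0.27 after NHD. Pdia4 is an example, with 10.87 and 10.79 with phenylephrine, 8.89 to 10.03 after NHD and 10.76, 10.59 and 10.68 in control plasma.

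The endoplasmic reticulum stress element, searched as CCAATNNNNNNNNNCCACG on both strands, was found in 0.0657% of all 33469 promoter windows. Of the 22 genes 16 had a window, and 8 of these held it (50%), among them Hspa5 and Hsp90b1, the major chaperones of the reticulum, and Creld2. Their differences were 0.35 ± 0.14 (adjusted p = 0.294), 0.83 ± 0.28 (adjusted p = 0.195) and 0.64 ± 0.23 (adjusted p = 0.248), and these 3 genes were picked for their motif. The stretches lie at chr3:38452953-38453011 (plus strand), chr7:23012327-23012489 (minus strand) and chr7:121789219-121789277 (plus strand), with the element in capitals. Hsp90b1 carries it 2 times, once on each strand, and Creld2 carries the reverse complement. Hyou1 held no match in its windows. None of the 74 genes higher or the 88 lower with phenylephrine that had a window held the element. The share in the list covers called and uncalled members and does not bear on the difference between the treatments.
Hspa5: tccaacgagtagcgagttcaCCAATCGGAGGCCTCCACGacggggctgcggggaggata
Hsp90b1: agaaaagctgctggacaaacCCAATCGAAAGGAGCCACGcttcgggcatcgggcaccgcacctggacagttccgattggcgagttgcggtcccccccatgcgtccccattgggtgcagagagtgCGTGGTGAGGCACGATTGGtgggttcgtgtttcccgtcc
Creld2: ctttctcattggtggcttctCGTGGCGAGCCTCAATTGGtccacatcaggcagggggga

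Genes that respond to glucocorticoids and the clock were lower at a few members. Of 26 glucocorticoid receptor targets 3 fell and none rose (11.5% called, against 1.35% of all genes), and the list median was -0.03. Zbtb16, a zinc finger repressor, stood at 7.07 and 7.74 with phenylephrine, at 8.91 to 9.26 after NHD (median 9.10) and at 9.66, 9.93 and 9.63 in control plasma. It fell by 1.68 (SE 0.25, adjusted p = 0.00366). Fkbp5, a co-chaperone of the glucocorticoid receptor, stood at 7.01 and 7.05 against 8.01 to 8.67 (median 8.39) and fell by 1.36 (SE 0.20, adjusted p = 0.00366). Per1, a clock repressor that glucocorticoids also raise, stood at 8.56 and 8.72 against 9.89 to 10.98 (median 10.05) and fell by 1.59 (SE 0.26, adjusted p = 0.00691). All 3 lay below every one of the 15 plasma arrays. With the fibroblast term 4 of the 26 passed, all lower. Tsc22d3, another target, had values of 8.19 and 8.04 with phenylephrine and 8.05 to 8.21 after NHD, which overlap. Of 17 clock genes 2 fell and none rose, Per1 and Cry1, which acts in the same repressor complex and fell by 0.77 (SE 0.15, adjusted p = 0.021). The clock list median was -0.2, with 11.8% called. With the fibroblast term that median was 0.01, and 1 of the 17 clock genes passed, lower.

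The mitochondrial ribosome translates the proteins encoded by mitochondrial DNA, and its list, one of the longest, held the highest count of decreases. Its share called (11.3%) was beside those of the clock (11.8%) and glucocorticoid (11.5%) lists. Of 71 mitochondrial ribosomal protein genes 8 fell and none rose, with a median of -0.34 and 34 at an unadjusted p under 0.05, all lower. In 48 of the 71 both phenylephrine arrays lay below all 6 after NHD arrays, against 14.9% of all genes, and in 14 below all 15 plasma arrays, against 6.45% of all genes. Mrpl47, a protein of the large subunit, stood at 9.95 and 10.33 with phenylephrine, at 11.05 to 11.82 after NHD (median 11.43) and at 11.63, 11.61 and 11.57 in control plasma, and fell by 1.30 (SE 0.19, adjusted p = 0.00366). The other decreases were Mrpl38 (-1.07 ± 0.22, adjusted p = 0.0266), Mrpl45 (-0.93 ± 0.16, adjusted p = 0.0115), Mrps16 (-0.78 ± 0.14, adjusted p = 0.0115), Mrpl10 (-0.68 ± 0.15, adjusted p = 0.0403), Mrps31 (-0.65 ± 0.13, adjusted p = 0.0239), Mrps30 (-0.59 ± 0.11, adjusted p = 0.0174) and Mrpl2 (-0.57 ± 0.11, adjusted p = 0.021). The mean log2 level of the 71 genes was 9.46 and 9.51 with phenylephrine, 9.80 to 10.01 after NHD and 9.24 to 9.45 in control plasma. As a group they were thus at the control level with phenylephrine and above it after NHD (medians 0.03 and 0.43 against control). The called members mostly lay below control with phenylephrine. Mrpl47 and Mrpl45 fell by 1.46 and 1.21 against control (adjusted p = 0.00061 and 0.000683). Phenylephrine and control means were 10.03 and 10.81 for Mrpl10, 7.33 and 7.77 for Mrpl2, and 10.76 and 11.2 for Mrps30. They were 9.29 and 9.72 for Mrpl38, 9.1 and 9.49 for Mrps16, and 8.54 and 8.51 for Mrps31. With the fibroblast term 3 of the 71 passed, with a median of -0.35.

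**Figure D5:**
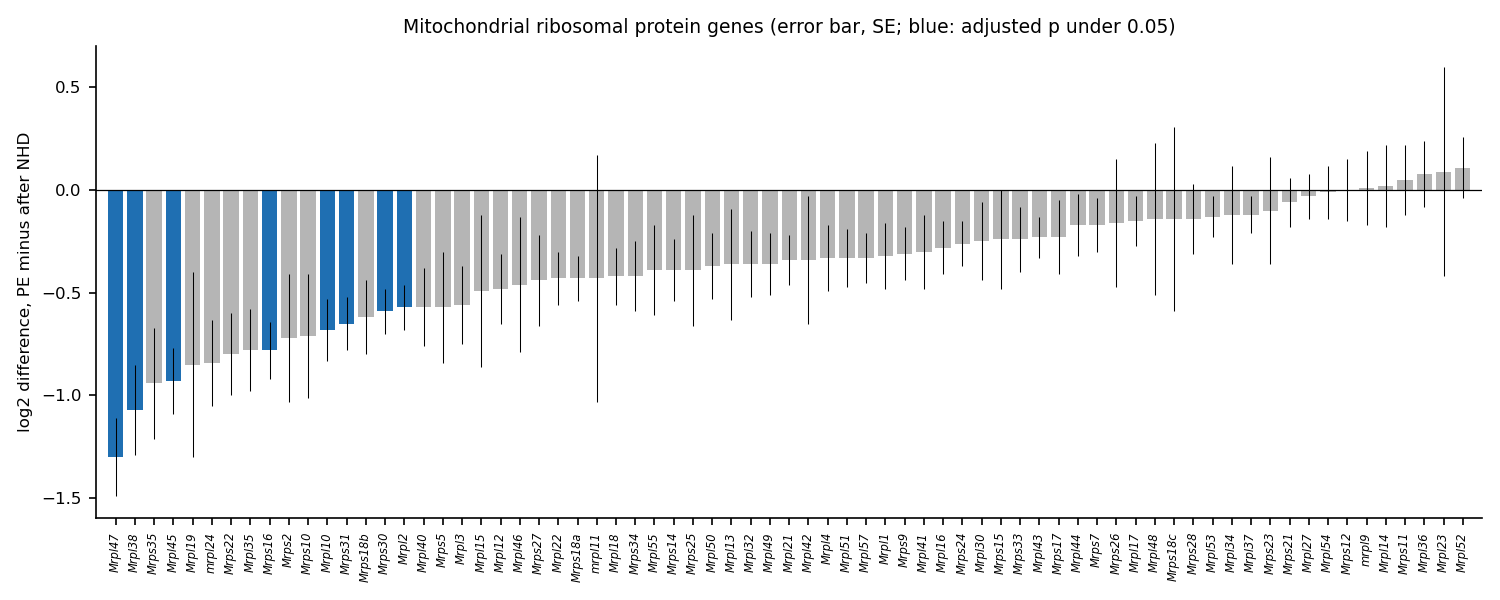
Log2 difference, phenylephrine minus after NHD plasma, of the 71 mitochondrial ribosomal protein genes, ordered by size, with standard errors of the fit as bars and the 8 genes with an adjusted p under 0.05 in blue. Mrpl47 has the largest decrease at -1.30, and 7 of the 71 differences are above 0.

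Further single decreases, which form no list and carry no count, were of genes whose products work in mitochondria. Mtif2, the initiation factor of mitochondrial translation, stood at 7.99 and 8.32 with phenylephrine, at 9.34 to 9.61 after NHD (median 9.53) and at 9.76, 9.86 and 9.78 in control plasma. It fell by 1.34 (SE 0.15, adjusted p = 0.000363), the smallest adjusted p among the decreases named here. Qrsl1, a subunit of the mitochondrial glutamyl-tRNA amidotransferase, fell by 1.09 (SE 0.24, adjusted p = 0.0391) and the complex I assembly factor gene Ndufaf4 by 1.07 (SE 0.18, adjusted p = 0.00995). Chosen after their values were seen, Taco1, the translational activator of a cytochrome oxidase subunit, fell by 0.82 (SE 0.17, adjusted p = 0.0307), the mitochondrial poly(A) polymerase gene Mtpap by 0.75 (SE 0.15, adjusted p = 0.0239) and the import receptor gene Tomm70 by 0.76 (SE 0.15, adjusted p = 0.0228). Coq9, needed for ubiquinone synthesis, fell by 0.77 (SE 0.14, adjusted p = 0.015) and Opa1, the fusion GTPase of the inner membrane, by 0.51 (SE 0.10, adjusted p = 0.0249), both also chosen after their values were seen.

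Among the enzymes of respiration 3 genes fell. Of 74 respiratory chain genes 2 fell and none rose (2.7% called, against 1.35% of all genes), with a median of -0.18. At an unadjusted p under 0.05 in limma, 17 were lower and 1 higher. Ndufs3, a core subunit of complex I, fell by 0.59 (SE 0.11, adjusted p = 0.0159) and Cox6a1, a subunit of cytochrome oxidase, by 0.43 (SE 0.09, adjusted p = 0.0275). Of 29 TCA cycle and pyruvate dehydrogenase genes 1 fell and none rose (3.45% called), with a median of -0.27 and 8 at an unadjusted p under 0.05, all lower. The isocitrate dehydrogenase gene Idh3a fell by 0.53 (SE 0.11, adjusted p = 0.0256). Against control plasma both lists had positive medians in both treatments. These were 0.14 with phenylephrine and 0.34 after NHD for the respiratory chain, and 0.37 and 0.67 for the TCA cycle list. The 3 called genes went the other way, with phenylephrine means below the control means. These means were 11.24 and 11.91 for Ndufs3, 12.71 and 13.08 for Cox6a1, and 12.32 and 12.57 for Idh3a. Of 68 cytosolic ribosomal protein genes 0 passed in limma (4 higher and 1 lower at an unadjusted p under 0.05), with a median of 0.09.

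The matrix genes gave a single call, a protease. Of 36 matrix and remodelling genes 1 rose and none fell (2.78% called, against 1.35% of all genes). The median was 0.85, and 0.06 with the fibroblast term. Mmp13, a collagenase, stood at 6.01 and 6.05 with phenylephrine, at 4.44 to 5.11 after NHD (median 4.65) and at 4.73, 4.71 and 4.70 in control plasma, and rose by 1.31 ± 0.16 (adjusted p = 0.000704). Among 17 collagen genes the basement membrane gene Col4a1 rose by 0.63 ± 0.14 (adjusted p = 0.0492), and it did not pass with the fibroblast term (0.46, adjusted p = 0.146) or after centring (0.58, adjusted p = 0.0606). Of 13 endothelial markers the junction gene Cdh5 rose by 0.59 ± 0.10 (adjusted p = 0.00936), with a list median of 0.31. Of 8 epicardial and mesothelial markers the keratin gene Krt18 rose by 1.69 ± 0.25 (adjusted p = 0.00366), with a list median of 0.36. Of its other probe sets, 1 differed by 1.56 (adjusted p = 0.00556) and 1 by 0.26 (adjusted p = 0.521).

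Several called differences fell outside these groups. Ass1, which makes argininosuccinate in arginine synthesis, had the joint smallest adjusted p of all called genes. It stood at 8.16 and 7.75 with phenylephrine, at 6.01 to 6.40 after NHD (median 6.21) and at 6.25, 5.91 and 6.31 in control plasma, and rose by 1.75 ± 0.14 (3.37-fold, adjusted p = 5.17e-06). Asl, the next enzyme of that route, was named after its value was seen and rose by 0.54 ± 0.12 (adjusted p = 0.0466, or 0.0737 after centring). Tmem100, a membrane protein induced by BMP signals in endothelium, rose by 1.63 ± 0.13 (adjusted p = 5.17e-06). The chitinase-like secreted protein gene Chi3l1 rose by 1.85 ± 0.28 (adjusted p = 0.00412). Cytip, which binds cytohesins, rose by 1.86 ± 0.26 (adjusted p = 0.00281) and the serine protease inhibitor gene Serpina9 by 1.79 ± 0.33 (adjusted p = 0.015). Slc29a1, the equilibrative nucleoside transporter, rose by 1.51 ± 0.29 (adjusted p = 0.0187).

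In 2 of the largest increases the after NHD arrays were the ones apart from control plasma. Scn3b, a β subunit of voltage-gated sodium channels, stood at 11.65 and 10.81 with phenylephrine, at 7.96 to 9.61 after NHD (median 8.40) and at 10.90, 10.99 and 10.90 in control plasma. It was 2.58 ± 0.48 higher with phenylephrine (adjusted p = 0.0151), with control inside the phenylephrine range. The carboxypeptidase inhibitor gene Lxn stood at 11.99 and 11.69 with phenylephrine, at 9.67 to 10.46 after NHD (median 9.94) and at 11.86, 11.93 and 11.84 in control plasma, and its difference was 1.83 ± 0.36 (adjusted p = 0.0201). Among the decreases, the potassium channel subunit gene Kcne1 stood at 8.01 and 7.70 with phenylephrine against 8.68 to 9.49 after NHD and fell by 1.13 (SE 0.19, adjusted p = 0.00949), the 1 call among 20 ion channel genes. Cend1, a neuronal cell cycle exit gene, had the largest decrease among the called genes, from 8.45 to 9.66 after NHD (median 8.95) to 7.11 and 7.18 with phenylephrine, and fell by 1.85 (SE 0.25, adjusted p = 0.00168). Hpdl fell by 1.24 (SE 0.27, adjusted p = 0.0368), Mcrip2 by 1.17 (SE 0.27, adjusted p = 0.047, or 0.0512 after centring), Tmem116 by 1.12 (SE 0.21, adjusted p = 0.0155) and the RNA-binding protein gene Ssb by 1.07 (SE 0.19, adjusted p = 0.0119). For Mcrip2 the control arrays, at 8.07, 8.44 and 7.95, lay inside the phenylephrine range of 7.72 to 8.59.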

How the data were processed

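RNA of the cultures was read on Affymetrix arrays, 1 per sample. Per the submitters' processing notes, the authors deposited log2 values from RMA. That method aligns the arrays' distributions, so a change shared by most genes is removed, and levels of different probe sets are not comparable. The number of arrays, 2 with phenylephrine, limits the precision. Symbols came from the platform annotation and RefSeq (GRCr8), and the probe set with the highest mean stood for its gene (14506 genes). All 17 arrays and 4 groups were fitted with limma 3.58.1 (R 4.3.3), without covariates, and p-values were adjusted by Benjamini-Hochberg over 29214 probe sets (threshold 0.05). On simulated data this fit recovered 72% of 100 probe sets changed by 1 on the log2 scale and 3% of 100 changed by 0.5. Named genes were taken from the 15 largest called differences each way, the 4 smallest p-values of each list and 10 preset genes, and others were chosen after their values were seen, as said beside them or, for Isg15, Pdia4, Tsc22d3, Tmem100, Mrpl2, Mrpl10, Mrpl38 and Mrps31, here. The members and lists (46 of function, 8 of cell types) were chosen with earlier results of these data known. Alternatives covered normalization, filters, the arrays fitted, array weights, a replicate block and leaving out each array. A term for the fibroblast markers and the omission of both arrays numbered 4 were added after the data were seen.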

Additional observations from a re-analysis of the deposited data

Results flagged for a closer look

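In 3 of the 97 genes tested for it, 1 after NHD array lay far from the other 5, and in each it was replicate 4. Chance flags about 1 in 20 groups of 6. RT1-T24-4 was lowest there at 7.30 on the log2 scale, with the others at 7.46 to 7.54. Bdkrb2 was highest there at 7.56, with the others at 6.73 to 7.0. Cry1 was highest there at 9.22, with the others at 8.70 to 8.89. In all 3 genes both phenylephrine arrays lay outside the after NHD range with that array included.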

How the results depend on the processing

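The fit of all arrays called 286 probe sets, 141 higher and 145 lower with phenylephrine. The count was 966 (419 higher, 547 lower) with only the 8 arrays compared, 1375 (602 and 773) without the before NHD arrays, whose spread is the largest, and 2918 (1293 and 1625) with array weights. Leaving out both arrays numbered 4 gave 465 (211 and 254), and keeping the 14607 brighter probe sets gave 294 (103 and 191). Centring each array on its median gave 249 (105 and 144). Over the fits that leave out 1 array each, the count ran from 16 to 417, with 15 to 195 higher and 1 to 222 lower; the lowest was without phenylephrine replicate 1 (16) and the other phenylephrine array gave 42, while after NHD replicate 5 gave 178 (92 and 86), after NHD replicates 2 and 6 gave 96 and 95 lower and before NHD replicate 4 gave 222 lower. With the replicate block, 694 were called (328 and 366), and the pairing is not established: deviations of same-numbered phenylephrine and after NHD arrays correlated at 0.056 and 0.125, and those of before and after NHD arrays at -0.025 to 0.599. Of 76 called genes named in the text, 9 stayed called without phenylephrine replicate 1, 16 without replicate 2, 48 with the fibroblast term, 71 after centring (not Rsad2, Pde2a, Asl, Col4a1 and Mcrip2) and 72 with the replicate block (not Abcg1, Asl, Col4a1 and Alas1), and none changed direction in any fit. Among genes that were not called, Adra1a turned to -0.13 with the replicate block, and Tsc22d3 turned to 0.00 with the fibroblast term and ran from -0.09 to 0.06 over the fits that leave out 1 array. The causes were not tested. With 2 phenylephrine arrays, differences of about 0.5 were rarely called in simulated data, so a gene short of the threshold was not shown to be alike in both treatments.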

Other observations

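Selenoproteins, which carry the amino acid selenocysteine, included 2 of the decreases. Gpx1, the cytosolic glutathione peroxidase, stood at 11.47 and 11.65 with phenylephrine, at 12.34 to 12.75 after NHD (median 12.67) and at 12.16, 12.08 and 12.11 in control plasma, and fell by 1.04 (SE 0.16, adjusted p = 0.00507). Selenot, of the endoplasmic reticulum, fell by 0.58 (SE 0.11, adjusted p = 0.0164). Selenow had a difference of -0.95 ± 0.22 that did not pass (adjusted p = 0.0555), with both phenylephrine values, 8.14 and 7.96, below the after NHD range of 8.79 to 9.14 and beside control levels of 8.20 to 8.26. Pstk, the kinase that prepares the transfer RNA for selenocysteine, fell by 1.15 (SE 0.18, adjusted p = 0.0056). Of 22 selenoprotein genes measured, a list drawn up after these values were seen, 2 fell and none rose. That is 9.09% called, against 1.35% of all genes, and the list median was 0.04.

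Among single genes, Ciao3, of cytosolic iron-sulfur cluster assembly, fell by 0.97 (SE 0.16, adjusted p = 0.00691) and Ciapin1, of the same machinery, by 0.58 (SE 0.11, adjusted p = 0.0144), both chosen after their values were seen and with no list behind them. Alas1, the first enzyme of haem synthesis, fell by 0.58 (SE 0.13, adjusted p = 0.0467), with phenylephrine at 11.83 and 11.74, control plasma at 11.79, 11.84 and 11.72, and after NHD at 12.23 to 12.46. For Alas1 it was thus the after NHD plasma that stood above control.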
